A study of Mus musculus with 15 samples.

Results

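Hepatic carriers of organic anions and cations were examined as a group of 9 genes in livers of mice with floxed Gata4, given a Cre virus or an empty virus. They were Slco1a1, Slco1a4, Slco1b2, Slco2a1, Slco2b1, Slc22a5, Slc22a7, Slc22a30 and Slc47a1, taken by symbol from a table of 24965 genes that the authors deposited. Each symbol stood on a single row, and all 9 passed the authors' filter on low means, as did 13335 genes in all. Libraries came from whole liver of 15 male C57BL/6J mice aged 9 weeks, each with floxed Gata4 alleles (Gata4 fl/fl). At 8 weeks of age, 7 days before death, mice labelled Gata4LKO (knockout) had received an adeno-associated virus of serotype 8 with Cre under the Tbg promoter (AAV8-Tbg-Cre). That promoter is active in hepatocytes, so the other liver cells would keep their floxed alleles. Control mice of the same floxed genotype had received an empty AAV8, so that knockout label and Cre go together. Sample titles carry 1 number per group, different in each of the 4 groups and not explained, so that this number and the genotype label cannot be told apart among the fasted livers. Livers of 4 control and 4 Gata4LKO mice were taken after a fast of 12 h. Livers of a further 4 control and 3 Gata4LKO mice were taken after a fast of 12 h followed by 12 h of refeeding on a diet of 69% sucrose and 10% fat.

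Hepatocytes face the blood on one side and the bile on the other, and carriers of the solute carrier (SLC) superfamily move charged molecules across both membranes. Members of the SLCO family, the organic anion transporting polypeptides, take up bile acids, steroid conjugates, thyroid hormones, prostaglandins and many drugs from blood. Members of the SLC22 family carry organic anions, organic cations or carnitine, and those of the SLC47 family exchange protons for organic cations and toxins that leave the cell. Together with export pumps of the ABC family they set how fast the liver clears such compounds.

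The promoters below are shown because Slco1b2 and Slco1a1 had the highest levels of the 9 genes and were not called, while Slc22a30 was the gene that rose. Each runs 5′ to 3′ from 250 bases before to 50 after the start of the gene in RefSeq (GRCm38.p6). They lie at chr6:141629268-141629567 on the plus strand for Slco1b2, chr6:141946913-141947212 on the minus strand for Slco1a1 and chr19:8405056-8405355 on the minus strand for Slc22a30. Capitals mark the letters that GATA factors recognise (AGATAA, the variant AGATAG, the form TGATAA or its variant TGATAG). They also mark CAAAGTCCA, the letters of an HNF4 site, and TATAAA, those of a TATA box, at any distance from the start. Both strands were searched.
Slco1b2: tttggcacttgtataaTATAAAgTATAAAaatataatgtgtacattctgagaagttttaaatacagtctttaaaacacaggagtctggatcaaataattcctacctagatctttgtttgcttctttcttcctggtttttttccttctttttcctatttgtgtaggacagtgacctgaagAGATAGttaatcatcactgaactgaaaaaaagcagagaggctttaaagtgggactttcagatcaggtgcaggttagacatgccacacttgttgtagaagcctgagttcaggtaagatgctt
Slco1a1: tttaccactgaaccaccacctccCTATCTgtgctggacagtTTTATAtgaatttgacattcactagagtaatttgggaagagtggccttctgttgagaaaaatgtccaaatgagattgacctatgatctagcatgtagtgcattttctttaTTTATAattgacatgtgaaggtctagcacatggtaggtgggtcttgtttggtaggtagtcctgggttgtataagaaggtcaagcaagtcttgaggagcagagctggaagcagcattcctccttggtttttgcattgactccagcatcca
Slc22a30: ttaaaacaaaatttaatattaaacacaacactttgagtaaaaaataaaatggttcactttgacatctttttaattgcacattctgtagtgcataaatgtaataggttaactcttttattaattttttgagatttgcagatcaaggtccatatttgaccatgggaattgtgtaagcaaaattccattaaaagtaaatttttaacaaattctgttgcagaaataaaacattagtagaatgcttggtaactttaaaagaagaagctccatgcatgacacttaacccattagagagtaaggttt

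In the Slco1b2 promoter, AGATAG began 71 bases before the start site. TATAAA stood further upstream, at 234 and 227 bases before the start. The Slco1a1 promoter held AGATAG on the opposite strand, 227 bases before the start, and TATAAA on the opposite strand at 209 and 99 bases. None of the searched letters stood in the Slc22a30 window. RefSeq promoters were matched by symbol for 7 of the 9 genes, 9 promoters in all, the other two genes being Slc22a7 and Slc47a1. A GATA core was found in 3 of these 9 promoters, those of Slco1b2, Slco1a1 and Slco2a1, against 29.8% of all 32851 promoters of this length. TATAAA was found in 3 of the 9, those of the same genes, against 13.6% of all promoters. In the Slco2a1 promoter it began 29 bases before the start. The HNF4 letters were found in 0, against 0.475%. Such matches describe the letters of a window and do not show binding.

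Libraries were of similar depth, with relative size factors from 0.912 to 1.11 and a sum of mean normalized counts of 17997131. Normalized counts are read counts divided by these factors, and the authors' table gives 1 mean over all libraries per gene, with no value per liver. The table's header names no groups. Of 56 readings tried on genes with a single read, 2 matched the table: livers labelled Gata4LKO minus control in the fasted state, or refed minus fasted in controls, both within a model of all 15 libraries. The first was taken, because the table is named for genotype, and every direction given here rests on that choice. Fasn, which is known to rise on refeeding, and Pck1, known to fall, stood at -0.77 ± 0.18 and 0.01 ± 0.82 on the log2 scale (SE, the authors' deposited table); both were chosen after their values were seen. The response of the transporter genes to refeeding was not analysed here. Of 14 hepatocyte marker symbols listed, 13 were in the table and tested. The other, Tf, is a second symbol for Trf, which was among the 13. Alb (albumin) had a mean of 1107247 normalized counts in the authors' deposited table. Gata4 itself had a log2 fold change of 0.31 ± 0.15 (SE, the authors' deposited table) and an adjusted p of 0.361 (DESeq2 Wald test, Benjamini-Hochberg adjustment). Its estimate was thus not below the control level under the knockout label, so the label is not checked by this gene. The floxed exons are not named, and a gene-wide count can miss the loss of a few exons. In whole tissue, fewer cells of a type and less RNA per cell cannot be told apart.

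Among the transporter genes 1 fell, 1 rose and the other 7 were not called. A gene was called at a deposited adjusted p under 0.05 (DESeq2 Wald test, Benjamini-Hochberg adjustment over the tested genes). The same rule called 2.19% of all tested genes, 0.585% as higher and 1.60% as lower. Among the 5045 tested genes whose mean lay between those of the lowest and highest transporter gene, it called 2.97%. The median log2 fold change of the 9 genes was 0.03, beside 0.01 for all tested genes. Their p under 0.05 without adjustment also numbered 2 of 9, beside 11.4% of all tested genes. The 9 genes share livers and a fit, and are not replicates of one another.

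**Figure D1:**
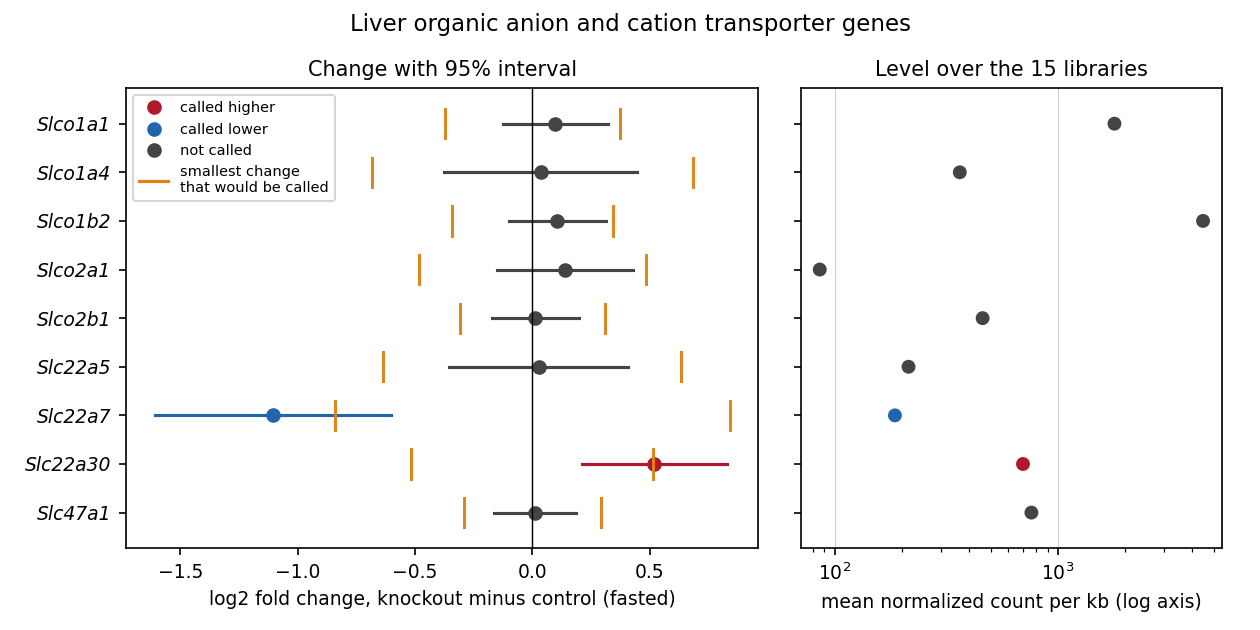
The left panel plots the log2 fold change of each transporter gene (Gata4LKO minus control, fasted) in the authors' deposited table with its 95% interval, and orange marks show the smallest change that would have been called. The right panel plots the mean normalized count per kb of exon on a log axis; Slc22a7, at -1.10, lies beyond its mark at 0.84, Slc22a30, at 0.52, lies on its mark, and the other 7 genes lie between 0.01 and 0.14.

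Slc22a7 fell. It encodes the organic anion transporter OAT2 of the hepatocyte's blood-facing membrane, which carries prostaglandins, nucleotides such as cyclic GMP, and several drugs. Slc22a7 (ENSMUSG00000067144, chromosome 17, 46432183 to 46438457, minus strand, GRCm38) had a mean of 391.5 normalized counts in the authors' deposited table, the lowest of the 9 genes. Its log2 fold change in the authors' deposited table was -1.10 ± 0.26 (SE), with an adjusted p of 0.00217 (DESeq2 Wald test, Benjamini-Hochberg adjustment). The estimate corresponds to a level 53.5% lower in livers labelled Gata4LKO, with a 95% interval from 34.0% to 67.2% lower. By deposited p it ranked 108th among the tested genes, and 98.7% of tested genes had a smaller change in either direction. No 50-base word of its annotated transcripts occurred in a transcript of another gene, and no other annotated gene overlapped it.

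Slc22a30 rose, by less and close to the threshold. It encodes a carrier of the organic anion branch of the SLC22 family. In the authors' deposited table Slc22a30 (ENSMUSG00000052562, chromosome 19, 8335371 to 8405111, minus strand, GRCm38) had a mean of 2352 normalized counts. Its log2 fold change in the authors' deposited table was 0.52 ± 0.16 (SE), with an adjusted p of 0.0470 (DESeq2 Wald test, Benjamini-Hochberg adjustment). That is 1.43 times the control level, with a 95% interval from 1.16 to 1.78. The call was lost in 4 of 7 alternatives: the adjusted p was 0.0874 when taken over every gene with a p (a setting that called 0.894% of those genes), and 0.0515 or 0.0534 after centring the changes on the median of all tested genes or of those with a mean of at least 100 (Benjamini-Hochberg adjustment of the DESeq2 Wald test), and the fourth was a threshold of 0.01. Of the 50-base words in its transcripts, 34.2% also occurred in other genes and 31.0% in Slc22a28 alone. How the authors counted reads that fit both genes is not given, so the value of Slc22a30 is uncertain to that extent.

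**Figure D2:**
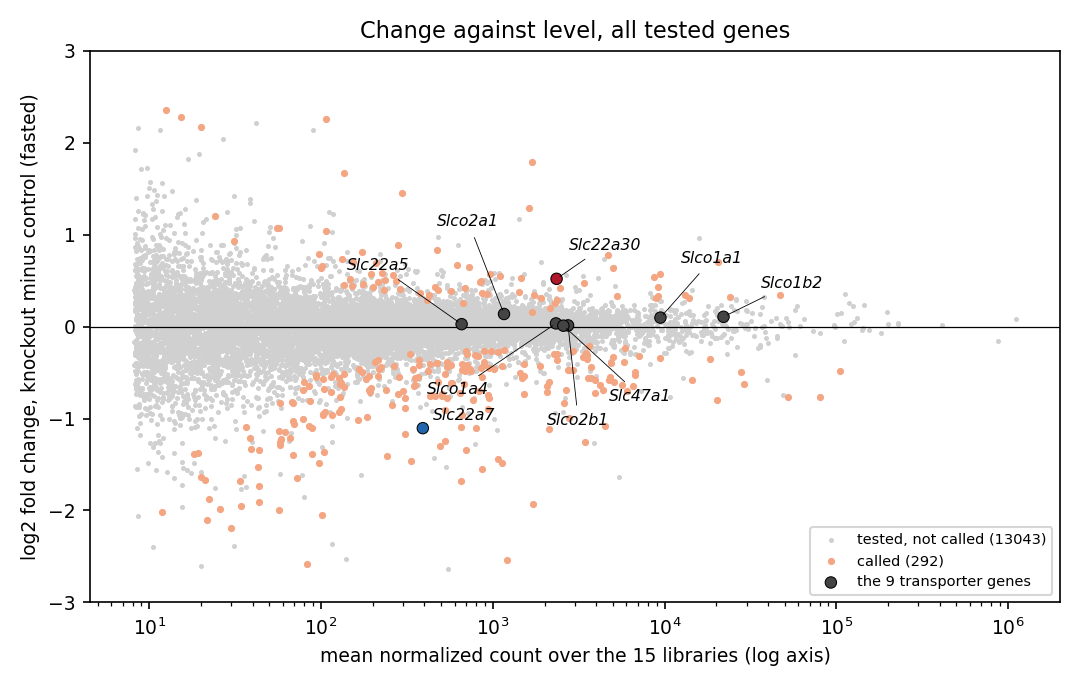
Each point is a tested gene, with its mean normalized count over the 15 libraries on a log axis and its log2 fold change (Gata4LKO minus control, fasted) in the authors' deposited table; 11 genes beyond 3 in either direction are not drawn. Orange points are the 292 called genes, and the labelled points are the 9 transporter genes, of which Slc22a7 at -1.10 and Slc22a30 at 0.52 lie away from the line at 0.

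The SLCO genes, which carry the bulk of sodium-independent anion uptake, were not called. Slco1b2, the mouse counterpart of the human OATP1B carriers of bilirubin, bile acids and statins, was the most abundant of the 9. It had a mean of 22037 normalized counts, or 4471 per kb of exon, in the authors' deposited table, which placed it 163rd per kb among tested genes. Its log2 fold change in the authors' deposited table was 0.11 ± 0.11 (SE), and its 95% interval, from -0.10 to 0.31, allowed a level between 0.934 and 1.24 times that of controls. Of the level per kb summed over the 5 SLCO genes, Slco1b2 made up 62.3% and Slco1a1 25.0%. Slco2b1, Slco1a4 and Slco2a1 followed with 6.42%, 5.07% and 1.20%.

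Slco1a1 encodes an uptake carrier of sulfated steroids and bile acids whose RNA is far more abundant in male than in female mouse liver. It averaged 9459 normalized counts, with a log2 fold change of 0.10 ± 0.11 (SE, the authors' deposited table), with a 95% interval from -0.13 to 0.32. On a list of 15 other male-biased liver genes, all tested, 4 fell, 0 rose, 7 had p under 0.05 before adjustment and the median log2 fold change was -0.29. In the authors' deposited table, the fallen genes were Hsd3b5, a steroid dehydrogenase gene, at -2.54 ± 0.35, Cyp4a12b, a fatty acid hydroxylase gene, at -1.48 ± 0.31, Selenbp2 at -1.68 ± 0.36 and Nudt7 at -0.69 ± 0.20 (SE). Of 16 female-biased genes, 7 were tested, and among them Rtn4 fell, at -0.80 ± 0.17 (SE, the authors' deposited table), and 0 rose. A difference between Slco1a1 and these genes was not tested, since the table does not give how their estimates vary together.

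Slco1a4 encodes a related uptake carrier of bile acids and cardiac glycosides that is known to respond to the xenobiotic receptor PXR. Its mean was 2333 normalized counts and its log2 fold change 0.03 ± 0.21 (SE, the authors' deposited table). The 95% interval, from -0.38 to 0.44, was the widest of the 7 genes not called. Slco1b2, Slco1a4 and Slco1a1 lie in that order along chromosome 6 between 141629518 and 141946962 (GRCm38). Slco1a1 and Slco1a4 shared 1.64% and 1.61% of their 50-base words with other genes, mostly of this cluster, and Slco1b2 shared none.

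Slco2b1, a carrier of steroid sulfates, averaged 2743 normalized counts, with a log2 fold change of 0.01 ± 0.09 (SE, the authors' deposited table). Its 95% interval ran from -0.17 to 0.20. A pair of antisense genes overlap its exons, with means of only 4.36 and 3.82 normalized counts in the authors' deposited table. Whether counting used strand is not stated, so how reads in the shared exon bases were counted is not known. The small means of the antisense genes do not show it.

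Slco2a1 encodes the prostaglandin transporter, which is prominent in endothelial cells. Its mean was 1162 normalized counts and its log2 fold change 0.14 ± 0.15 (SE, the authors' deposited table), with a 95% interval from -0.15 to 0.43. Its level was 85.8 normalized counts per kb of exon, the lowest of the 9 on that scale, with an exon length of 13.5 kb over all annotated isoforms. On a list of 20 sinusoidal and vascular endothelial markers, 16 estimates were positive and the median log2 fold change was 0.22, with estimates from -0.71 to 0.77. Of all tested genes, 51.9% had a positive estimate. By the authors' DESeq2 Wald test 0 of the 20 passed, while 9 reached p under 0.05 without adjustment. The part of these cells in the Slco2a1 value was not tested.

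Slc22a5 encodes OCTN2, the high-affinity carnitine carrier, through which carnitine for fatty acid oxidation enters cells. Its mean in the authors' deposited table was 658.3 normalized counts and it changed by 0.03 ± 0.19 (SE) on the log2 scale, with a 95% interval from -0.35 to 0.41. Of its 50-base words, 26.1% also occurred in Slc22a21, a neighbouring carnitine carrier gene on chromosome 11 with a mean of 8.70 normalized counts in the authors' deposited table. Among 7 tested genes of carnitine handling, the authors' DESeq2 Wald test called 0, with 0 at p under 0.05 before adjustment, and the median log2 fold change was 0.03. These ranged from -0.15 for Aldh9a1, of carnitine synthesis, to 0.22 for Crat, carnitine acetyltransferase, in the authors' deposited table. The mitochondrial carnitine palmitoyltransferase Cpt1a stood at -0.09 ± 0.16 (SE, the authors' deposited table).

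Slc47a1 encodes MATE1, which passes organic cations such as metformin from hepatocytes into bile in exchange for protons. In the authors' deposited table its mean was 2575 normalized counts and its log2 fold change 0.01 ± 0.09 (SE), the smallest change and the smallest standard error of the 9. The 95% interval, from -0.16 to 0.18, allowed a level between 0.892 and 1.14 times that of controls. Its neighbour Slc47a2 averaged 0.478 normalized counts (the authors' deposited table), with no adjusted p.

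The precision of these estimates differed between genes. With the largest p among called genes, 0.00108, a gene needed an estimate of 3.27 standard errors to be called. For Slc47a1 and Slco2b1 that came to 0.29 and 0.31 on the log2 scale, or 1.22- and 1.24-fold. For Slc22a5, Slco1a4 and Slc22a7 it came to 0.63, 0.68 and 0.84. A fall of the size seen for Slc22a7 would therefore have been past the threshold in each of the other 8 genes, at their standard errors. A rise of the size seen for Slc22a30 would not have been past it for Slco1a4, Slc22a5 or Slc22a7.

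Coefficients of variation within a group can be read from the standard errors if all of the error is taken as variation between livers. They came to 8.73% for Slc47a1, 9.30% for Slco2b1, 10.3% for Slco1b2 and 11.2% for Slco1a1. The coefficient was 14.5% for Slco2a1, 15.5% for Slc22a30, 19.0% for Slc22a5, 20.5% for Slco1a4 and 25.2% for Slc22a7. Among the 1000 tested genes of nearest mean, 97.4% had a smaller standard error than Slc22a7, 95.9% than Slc22a5, 95.6% than Slco1a4, 90.6% than Slc22a30 and 89.9% than Slco2a1. For Slco1a1, Slco1b2, Slco2b1 and Slc47a1 the shares were 71.0%, 64.7%, 63.6% and 56.9%. Slco1a1 and Slco1b2 lie near the upper end of the means, so both were set against the 1000 most abundant tested genes. Thus each of the 9 had a larger error than the median gene of its comparison set. DESeq2 moves such spreads toward a trend over genes, and the spread is pooled over fasted and refed livers. The coefficients above are therefore not upper limits.

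**Figure D3:**
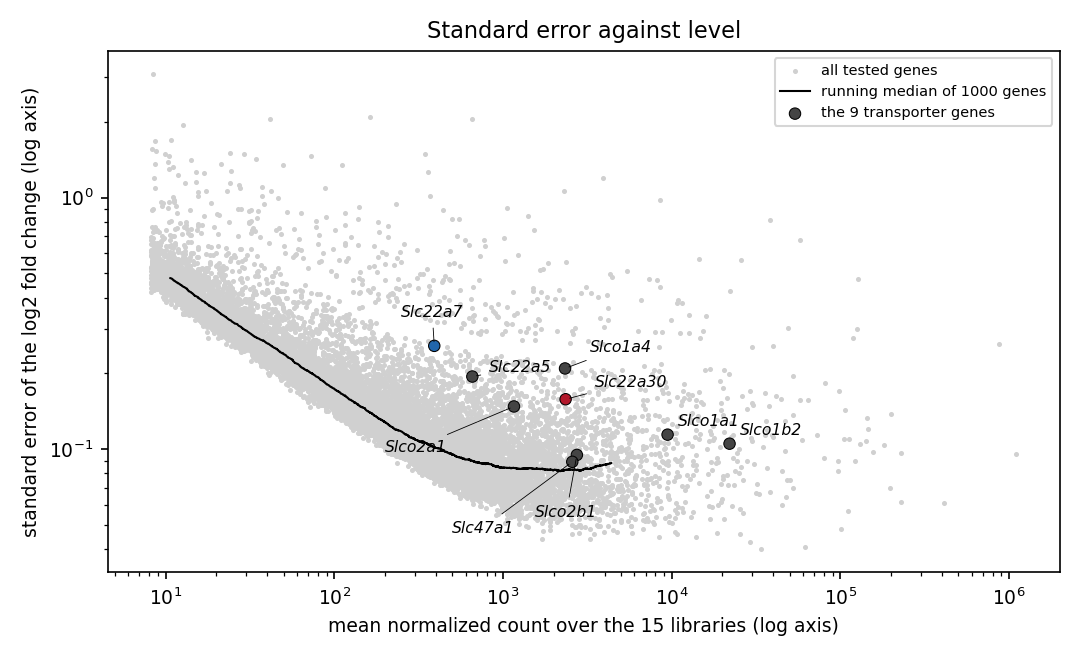
Each point is a tested gene, with its mean normalized count over the 15 libraries and the standard error of its log2 fold change in the authors' deposited table, both on log axes; the line is the running median of 1000 genes. The line ends below the levels of Slco1a1 and Slco1b2; the other 7 labelled transporter genes lie above it, from 0.09 for Slc47a1 close to it up to 0.26 for Slc22a7.

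The other tested genes of the SLCO, SLC22 and SLC47 families gave no call. Of 35 listed genes, 24 were in the table and 11 had an adjusted p. The authors' DESeq2 Wald test called 0 of these 11, and 0 reached p under 0.05 before adjustment. The 13 genes without an adjusted p had means of at most 7.51 normalized counts in the authors' deposited table. Slco1a7 and Slco1a8 were searched only under these symbols, which the gene annotation used here does not hold. Their absence from the table therefore says nothing about these genes. Slc22a23 and Slc22a18 were among the most abundant of the 11 tested genes, at means of 1751 and 888.2 normalized counts in the authors' deposited table. Their estimates of -0.12 ± 0.09 and 0.01 ± 0.11 on the log2 scale (SE, the authors' deposited table) did not pass. Slco3a1, a widely expressed family member, stood at 0.09 ± 0.22 (SE, the authors' deposited table).

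Slc22a30 lies in a run of SLC22 genes on the minus strand of chromosome 19. From Slc22a26 at 7781041 to Slc22a30 at 8405111 (GRCm38) the run holds 5 genes. Slc22a19, which precedes Slc22a26 at 7673061 to 7711310, is not in the authors' deposited table under that symbol. Each of the 5 had a positive estimate, also after centring, and 1 of them, Slc22a30, was called. Of all tested genes, 51.9% had a positive estimate. In the authors' deposited table Slc22a28 stood at 0.47 ± 0.24 (SE), with a mean of 178.7 normalized counts and an adjusted p of 0.449 (DESeq2 Wald test, Benjamini-Hochberg adjustment). Slc22a26 and Slc22a27, with means of 31.2 and 20.3 normalized counts, stood at 1.42 ± 0.80 and 0.27 ± 0.72 (SE, the authors' deposited table). Slc22a29, with a mean of 6.45 normalized counts, stood at 0.26 ± 0.89 (SE, the authors' deposited table) and was not tested. Because these genes share sequence, their estimates do not come from separate sets of reads for certain.

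**Figure D4:**
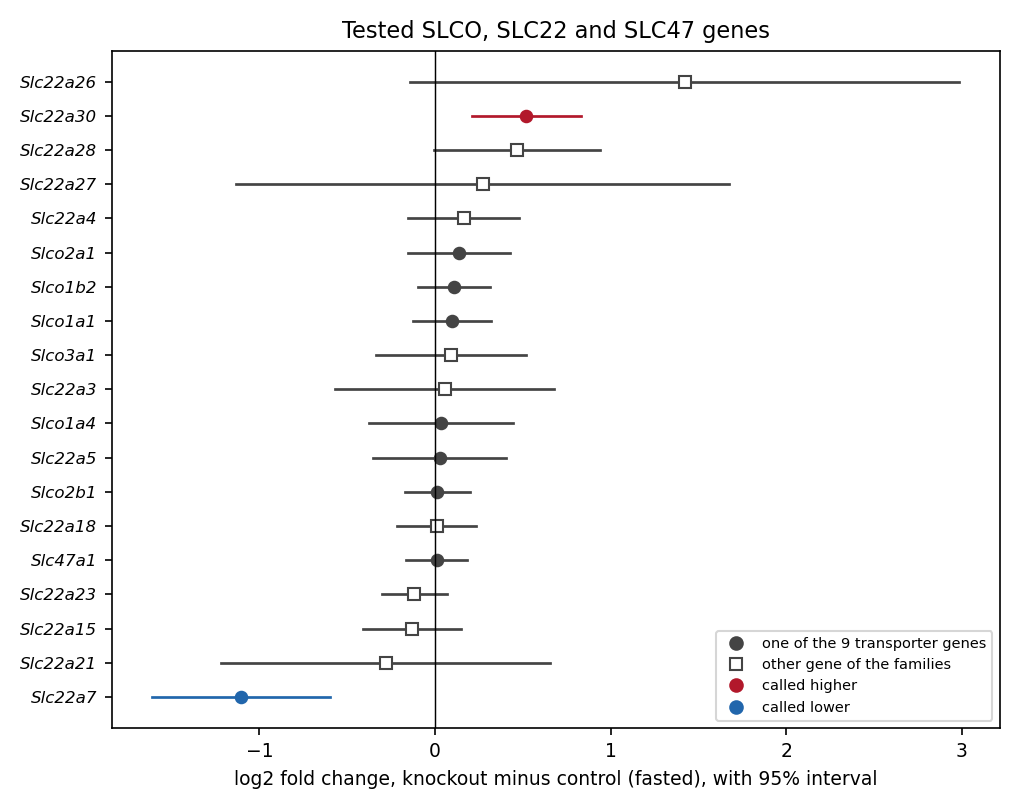
Of the 20 tested SLCO, SLC22 and SLC47 genes, 19 are drawn, ordered by log2 fold change (Gata4LKO minus control, fasted) in the authors' deposited table, with 95% intervals; filled circles are the 9 transporter genes and open squares the other 10. Slc22a7, at -1.10, and Slc22a30, at 0.52, are the coloured points, and Slc22a26, Slc22a28 and Slc22a27 lie to the right of 0 with intervals that reach or cross it.

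Export pumps and the other bile acid carriers act on many of the same compounds. Of 15 tested, 1 rose, 0 fell, 3 had p under 0.05 before adjustment and the median log2 fold change was 0.04. The gene that rose was Abcc4, a basolateral export pump of conjugates and cyclic nucleotides, at 1.67 ± 0.24 (SE, the authors' deposited table), with a mean of 135.6 normalized counts. Slc10a1, the sodium-dependent bile acid carrier NTCP, stood at 0.04 ± 0.07, the bile salt export pump Abcb11 at 0.18 ± 0.13 and the canalicular pump Abcc2 at 0.13 ± 0.11 (SE, the authors' deposited table). These genes, named for their roles after their values were seen, did not pass.

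Transcription factors known to act on liver transporter genes gave no call either. Of 21 tested, the authors' DESeq2 Wald test called 0, with 2 at p under 0.05 before adjustment, and the median log2 fold change was 0.08. Those 2, chosen after their values were seen, were Foxa1 at 0.33 ± 0.15 and Foxa3 at -0.34 ± 0.12 (SE, the authors' deposited table). Hnf4a, a master regulator of hepatocyte genes, stood at 0.10 ± 0.07, and Nr1i2, the gene of PXR, at 0.14 ± 0.13 (SE, the authors' deposited table). Among GATA factors and their FOG cofactors 5 were tested, and Zfpm1, which encodes FOG1, fell, at -0.72 ± 0.16 (SE, the authors' deposited table), and 0 rose. By the authors' DESeq2 Wald test 3 of the 5 had p under 0.05 before adjustment. Besides Zfpm1 these were Gata4 and Zfpm2, at 0.31 ± 0.15 and 1.08 ± 0.44 (SE, the authors' deposited table), which did not pass. Zfpm2, which encodes FOG2, was named after its value was seen.

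Lists of hepatocyte zones and of other cell types were read beside the transporter genes, and their part in the transporter values was not tested. Of 13 tested hepatocyte markers 1 fell, Apoa1, at -0.48 ± 0.11 (SE, the authors' deposited table), and the median was 0.10. Of 14 pericentral genes 1 fell, Gulo, of vitamin C synthesis, at -0.50 ± 0.10 (SE, the authors' deposited table), and of 14 periportal genes 1 rose, Etnppl, at 0.78 ± 0.19 (SE). The medians of both lists were -0.03 and 0.07. Before adjustment, p was under 0.05 for 5 of the hepatocyte markers, 4 of the pericentral genes and 2 of the periportal genes. Besides Gulo, the pericentral genes among these were Axin2, Tbx3 and Rhbg, at log2 fold changes of -0.50, -0.41 and -0.74 (the authors' deposited table). Besides Etnppl, the periportal gene among these was Ctsc, at -0.32 (the authors' deposited table). Axin2, Tbx3, Rhbg and Ctsc did not pass and were named after their values were seen. Estimates were positive for 5 and negative for 9 pericentral genes, and positive for 10 and negative for 4 periportal genes. Of all tested genes, 51.9% had a positive estimate. Kupffer cell and macrophage markers had 13 of 14 negative estimates and a median of -0.25. Stellate cell and cholangiocyte lists had medians of 0.09 over 12 and 0.05 over 4 tested genes. In these 3 lists the authors' DESeq2 Wald test called 0 genes, with 1, 0 and 0 at p under 0.05 before adjustment. Of 9 lymphocyte markers 2 were tested, that test called 0 and both reached p under 0.05 before adjustment, with a median log2 fold change of -1.03. Many SLC22 genes are also expressed in kidney, and 1 of 10 kidney tubule markers, Lrp2, was tested, with a mean of 25.2 normalized counts in the authors' deposited table. Of 8 pancreas acinar markers 1 was tested. The DESeq2 Wald test called 0 of these kidney and pancreas genes, and 0 reached p under 0.05 before adjustment.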

How the data were processed

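Frozen liver was extracted by TRIzol and RNeasy and made into stranded KAPA libraries, per the labels' protocols. The submitters' processing notes list FastQC, STAR 2.6.0c, mm10 and DESeq2 as used by the authors; the counter, its strand setting and its annotation are not stated there. The authors deposited 1 genotype result, without any value for a single liver. Its mean is an averaged signal (counts over size factors), per the file headers. Changes are log2 values with errors, also log2, per the file headers. The deposited score, a Wald statistic, is the ratio of the 2 to 6 decimals. The deposited p-values belong to it, and the adjusted ones match a Benjamini-Hochberg adjustment of 13335 genes; another 11605 genes had a p alone.

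Groups were identified from 166 genes with a single read. Such reads were fitted by negative binomial regression, lightly penalised, under 56 readings of the table, which differed in model, reference, contrast or sign. Of these, 2 came within 1e-06 of the deposited values, and the nearest other was 4.37e-05 away. Both use all 15 libraries, an interaction term and fasted controls as reference. One is the effect of the knockout label in the fasted state, the other that of refeeding in controls. The first was taken because the result is named for genotype, and every direction rests on it. The search was tested on simulated data.

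The 9 genes, the 20 gene lists and the tests were chosen with earlier results of these data known. Named genes were the 9, Gata4, called list members (at most 4 a list) and the 3 most abundant tested genes of each family list. Of these, any whose results are not reported here were left unnamed. Other named genes were chosen for their roles or positions after their values were seen. Some results for other genes and a motif are not reported here. Intervals are 95% normal intervals about the estimate, built from its SE. Lengths and positions are from GENCODE M21 (GRCm38), and 50-base words were compared over its transcripts. Nothing says that livers of a group came from separate litters or cages, so p-values measure only the spread between these livers. Alternatives were other adjustments, thresholds and centring. Python 3.11.15, numpy 2.4.6, pandas 2.3.3 and scipy 1.17.1 were used.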

Additional observations from a re-analysis of the deposited data

How the results depend on the processing

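All alternatives were planned. Of 63 alternatives for single transporter genes, 59 kept the call or its absence; Slc22a7 stayed past the threshold in all 7, with adjusted p from 0.00171 to 0.00406. The other 4 concerned Slc22a30: its log2 fold change of 0.52 did not pass over every gene with a p or at a threshold of 0.01, and neither did 0.51 after either centring. Over its alternatives the adjusted p of Slc22a30 ran from 0.0396 to 0.0874. The number of transporter genes called was 1 over every gene with a p, where 0.894% of genes were called, and 1 at a threshold of 0.01, where 167 of all genes were called. For the other 19 lists 1 alternative was run, adjusting across all genes that had a p, and it moved their counts by no more than 1.5 times; other thresholds were not run for them. No paired analysis was possible because no liver has a value of its own in the table. Leaving out livers one at a time, or scaling libraries differently, could not be run either, so whether 1 liver decides the fall of Slc22a7 or the rise of Slc22a30 was not tested.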
